A study of Mus musculus with 4 samples.

Results

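Cholesterol and fatty acid synthesis in the injured spinal cord was followed through 34 genes in a deposited RNA-seq table, which lists 14718 gene symbols at 1 or both time points. The genes were chosen by name as enzymes of sterol and fatty acid synthesis, their regulators and a few proteins that handle the products, and every row with one of these symbols was used. The table writes mouse symbols in capitals, such as HMGCS1, CYP51 and SCD1, and they are written here in mouse style. By role, 18 of the genes act in sterol synthesis, 5 in its control by the sterol regulatory element-binding proteins (SREBPs), 4 in fatty acid synthesis, 4 in fatty acid desaturation and 3 in the handling of sterols and lipids. At 7 days post injury (dpi), 32 of the 34 were among the 14125 genes listed, and at 21 dpi 27 were among 11472, with 26 listed at both. Acat2, Pmvk, Msmo1, Ebp, Fasn and Fads2 were listed at 7 dpi only, Acly was listed at 21 dpi only, and Srebf1 was listed at neither. A gene that was not listed has no value here and was not taken as low.

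RNA had been taken from segments of about 4 mm containing the lesion of male targeted replacement (TR) mice, 3 to 5 months of age, after a contusion of the thoracic cord at 50 kdyne. In TR mice the mouse Apoe gene is exchanged for a human one, so that the animals make either human ApoE3 or human ApoE4 under the mouse promoter. The 4 groups were ApoE3 at 7 dpi, ApoE4 at 7 dpi, ApoE3 at 21 dpi and ApoE4 at 21 dpi, and no uninjured cord was analysed here. The methods give 3 mice per group, but the table holds 1 value per gene and group. There was therefore no spread between mice, no test could be run, and no difference given here has a replicate check.

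Cholesterol is built in the cell from acetyl-CoA by way of mevalonate, farnesyl pyrophosphate, squalene and lanosterol, and fatty acids are built from the same acetyl-CoA and then lengthened and desaturated. When membrane sterol is low, Scap carries the SREBP precursors from the endoplasmic reticulum to the Golgi, where they are cleaved into transcription factors for these enzymes, and the Insig proteins hold Scap back when sterol is plentiful. The cord makes nearly all of its own cholesterol, because the blood-spinal cord barrier keeps plasma lipoproteins out, and it needs large amounts for myelin. ApoE is the main lipid carrier that astrocytes and, after injury, macrophages release within the tissue.

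Levels are given as FPKM, fragments scaled to transcript length and to the fragments sequenced, which allows genes to be compared with each other. The genotype ratio of a gene is log2 of FPKM plus 1 in ApoE3 over FPKM plus 1 in ApoE4, so a positive ratio means higher in ApoE3, and low genes appear less different than they are. Each row names its comparison as ApoE3 versus ApoE4 and gives the fold of the first value over the second, and the first value was read as ApoE3 on these grounds. The columns are numbered with ApoE4 first, and under that reading each direction between genotypes given here would be the opposite. A gene was counted as past the fold when FPKM plus 1 differed at least 1.3-fold, a log2 ratio of 0.38. A centred ratio is the ratio minus the median over genes whose mean FPKM was 1 or more, which was 0.0018 at 7 dpi and -0.42 at 21 dpi. Scd1 and Scd2 are alike in sequence, and how their reads were divided is not known, so the value of either is uncertain. The time points may have been normalized separately by the authors, so levels at 7 and 21 dpi are set side by side as a description. In the RefSeq annotation of the mouse genome, 15 of the 34 genes overlap another gene, 5 of them a protein-coding one (Fdft1, Tm7sf2, Srebf1, Acaca and Lpin1). The library kit named in the labels does not keep the strand of the RNA, and reads from stretches that such genes share cannot be told apart. The same holds in a tissue sample for fewer cells of a type and less RNA per cell.

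The lesion expressed both arms of the pathway throughout, with the highest level in a desaturase. Scd2, the main desaturase of neural tissue, which makes oleic from stearic acid, was the highest of the listed genes of the pathway in all 4 groups. Its level was 546 FPKM in ApoE3 mice and 522 in ApoE4 mice at 7 dpi, and 509 in ApoE3 and 764 in ApoE4 at 21 dpi. Lpin1, a phosphatidate phosphatase that makes diacylglycerol for membrane and storage lipids, came next at both time points, with 318 FPKM in ApoE3 mice and 289 in ApoE4 mice at 7 dpi. At 21 dpi it had 283 FPKM in ApoE3 mice and 339 in ApoE4 mice. At the other end, Nsdhl, which removes methyl groups from the sterol ring, was lowest at 7 dpi, with 7.20 FPKM in ApoE3 mice and 7.55 in ApoE4 mice. At 21 dpi Mylip, a ubiquitin ligase that marks lipoprotein receptors for breakdown, was lowest, with 6.90 FPKM in ApoE3 mice and 8.69 in ApoE4 mice. Ranked among all listed genes, the median gene of the pathway stood at percentile 59.9 in ApoE3 and 56.2 in ApoE4 at 7 dpi, and at percentile 70.7 in ApoE3 and 68.7 in ApoE4 at 21 dpi. Different genes were listed at the 2 time points, so these medians do not cover the same members.

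**Figure D1:**
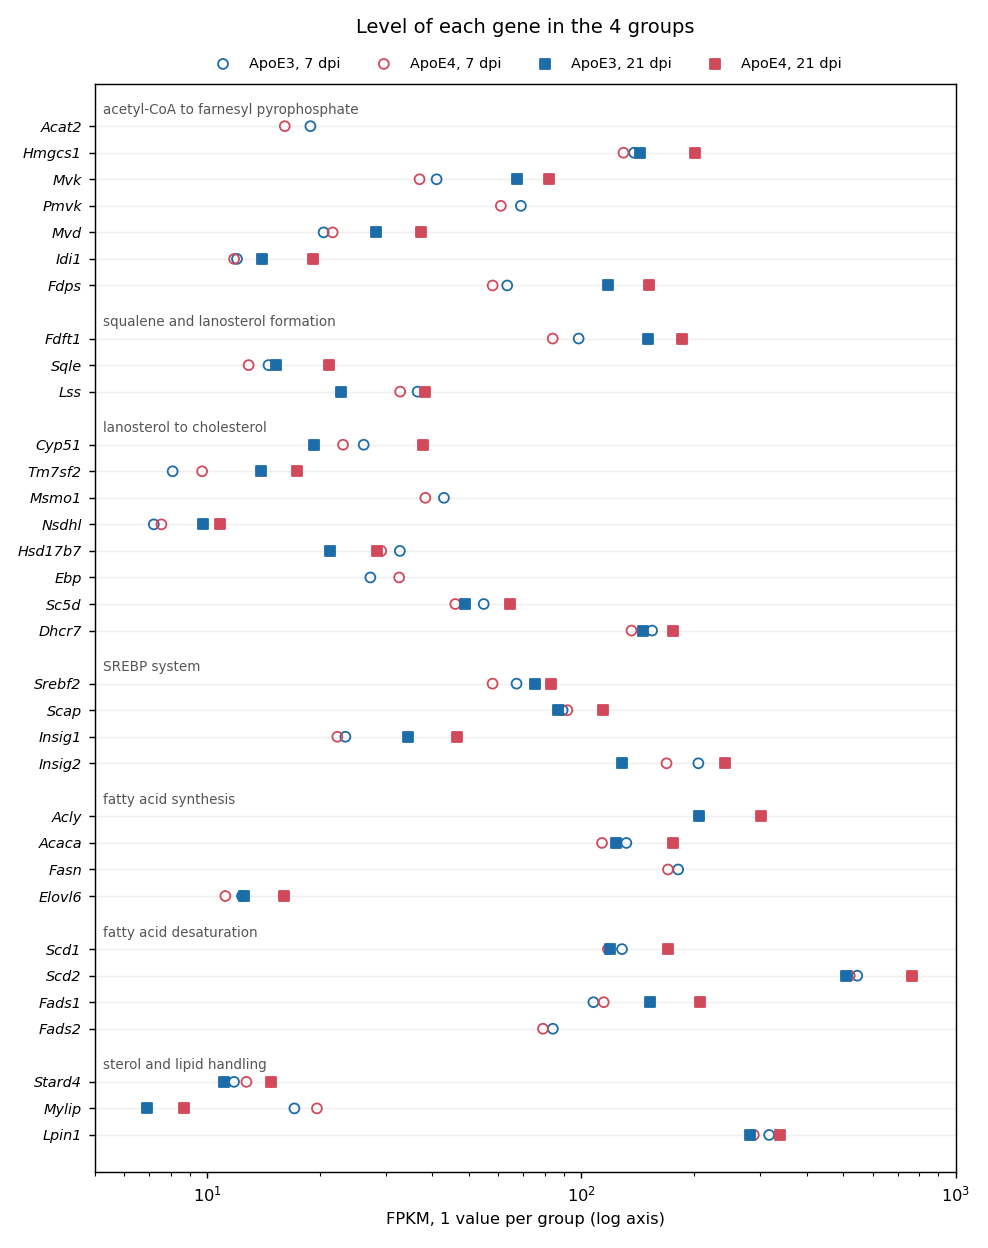
Level of each gene in FPKM on a log axis, with 1 point per group, circles for 7 dpi, squares for 21 dpi, blue for ApoE3 and red for ApoE4, and the genes arranged by role. At 21 dpi the red square lies to the right of the blue square for all 27 genes listed, and Scd2 lies farthest to the right in every group.

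At 7 dpi, the genotypes differed little in any step of the pathway. Most sterol and fatty acid genes were slightly higher in ApoE3, and none reached the fold in either direction. Of the 32 genes listed, 24 were higher in ApoE3 and 8 were higher in ApoE4, whereas 50.4% of all listed genes were higher in ApoE3. The median log2 ratio of the 32 genes was 0.13, and that of all listed genes was 0.0020. Past the fold, 0 of 32 genes were higher in ApoE3, compared to 3.78% of all listed genes, and 0 were higher in ApoE4, compared to 4.76%. The centred counts were also 0 in both directions, beside 3.76% of all genes higher in ApoE3 and 4.82% higher in ApoE4.

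Sterol synthesis showed this small offset at most steps at 7 dpi. The 7 genes from acetyl-CoA to farnesyl pyrophosphate had a median log2 ratio of 0.13, the 3 genes of squalene and lanosterol formation 0.16, and the 8 genes from lanosterol to cholesterol 0.16. Acat2, the cytosolic thiolase that joins acetyl-CoA units at the start of the pathway, had 18.9 FPKM in ApoE3 mice and 16.1 in ApoE4 mice. Hmgcs1, the HMG-CoA synthase that follows it, had 138 FPKM in ApoE3 mice and 129.6 in ApoE4 mice. Sc5d, a desaturase near the end of the pathway, had 54.8 FPKM in ApoE3 mice and 46.0 in ApoE4 mice, the largest ratio of a sterol enzyme toward ApoE3 at 0.25. Pmvk, the second kinase of mevalonate, had 68.9 and 60.9 FPKM, and Msmo1, a sterol oxidase, had 42.9 and 38.3. On the side of ApoE4 were 4 of the 18 enzymes, Mvd, Tm7sf2, Nsdhl and Ebp. Ebp, the sterol isomerase, had 27.3 FPKM in ApoE3 mice and 32.6 in ApoE4 mice, which was the lowest ratio of all 32 genes at -0.25.

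The control genes and the fatty acid genes were also within the fold at 7 dpi. Insig2, which keeps Scap in the endoplasmic reticulum, had the highest ratio of the 32 genes, with 205 FPKM in ApoE3 mice and 169 in ApoE4 mice, a log2 ratio of 0.28 and a fold of 1.22. Insig1, its partner that is itself switched on by SREBPs, had 23.4 FPKM in ApoE3 mice and 22.3 in ApoE4 mice. Srebf2, which encodes the SREBP that mainly drives sterol genes, had 67.1 and 57.9 FPKM, while Scap had 89.1 and 91.8. Fasn, the fatty acid synthase, had 181 FPKM in ApoE3 mice and 170.4 in ApoE4 mice, and Acaca, the carboxylase that supplies it with malonyl-CoA, had 132 and 114. The 3 fatty acid synthesis genes listed had a median log2 ratio of 0.14 and the 4 desaturases one of 0.077. Only the handling genes had a negative median, of -0.10 over Stard4, Mylip and Lpin1.

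At 21 dpi, all 27 genes listed were lower in ApoE3 than in ApoE4, and so was nearly the whole table. The lower value was that of ApoE3 in 93.8% of all listed genes, the FPKM of all genes summed to 1513692 in ApoE3 and 2050283 in ApoE4, and the log2 ratio of these sums was -0.44. Past the fold, 17 of the 27 genes were higher in ApoE4, a share of 63%, beside 58.9% of all listed genes, and 0 were higher in ApoE3, beside 2.02%. The median log2 ratio of the 27 genes was -0.39, and that of all listed genes was -0.42. The median of the pathway was thus close to that of the table, and centred ratios give each gene relative to the latter.

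**Figure D2:**
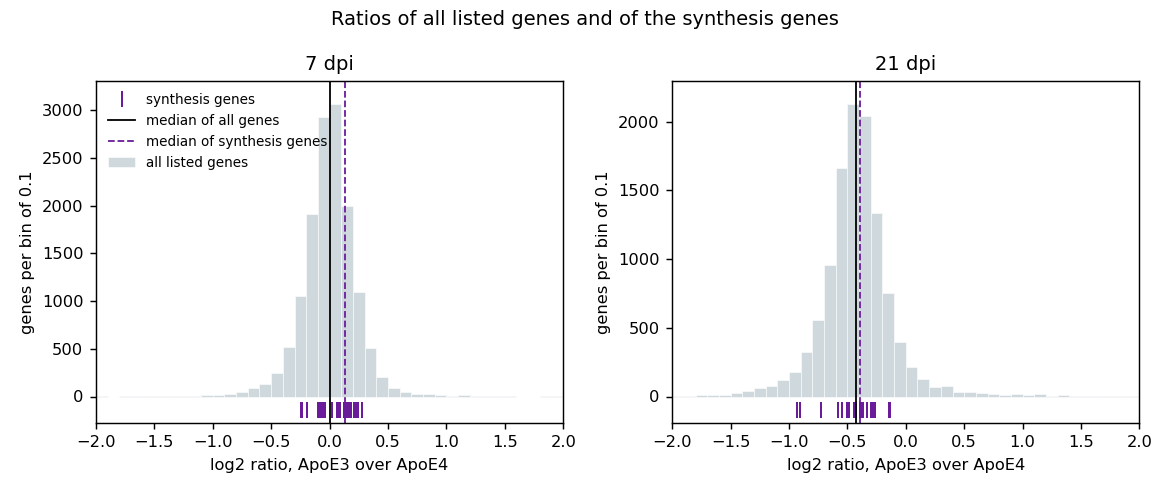
Number of listed genes per bin of log2 ratio of ApoE3 over ApoE4 at 7 dpi and at 21 dpi, with purple ticks for the genes of cholesterol and fatty acid synthesis, a black line at the median over genes whose mean FPKM was 1 or more and a dashed purple line at the median of the synthesis genes. The axis ends at a log2 ratio of 2 on either side, and at 21 dpi most of the distribution lies to the left of 0, with the ticks spread around its median.

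Relative to all genes, a few steps of the pathway stood lower in ApoE3 at 21 dpi and the others lay near the median or slightly above it. Cyp51, which demethylates lanosterol, and Insig2 were past the fold in the direction of ApoE4, and Lss, which makes lanosterol, lay closest behind them. After centring, 16 of the 27 genes lay above this median and 11 below it, and the median of the 27 was 0.029. Past the fold after centring, 2 genes (7.41%) were higher in ApoE4, compared to 8.06% of all genes, and 0 were higher in ApoE3, compared to 7.47%. The share of the pathway past the fold was thus near that of all genes toward ApoE4, and with a minimum fold of 1.5 it was 0 after centring.

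**Figure D3:**
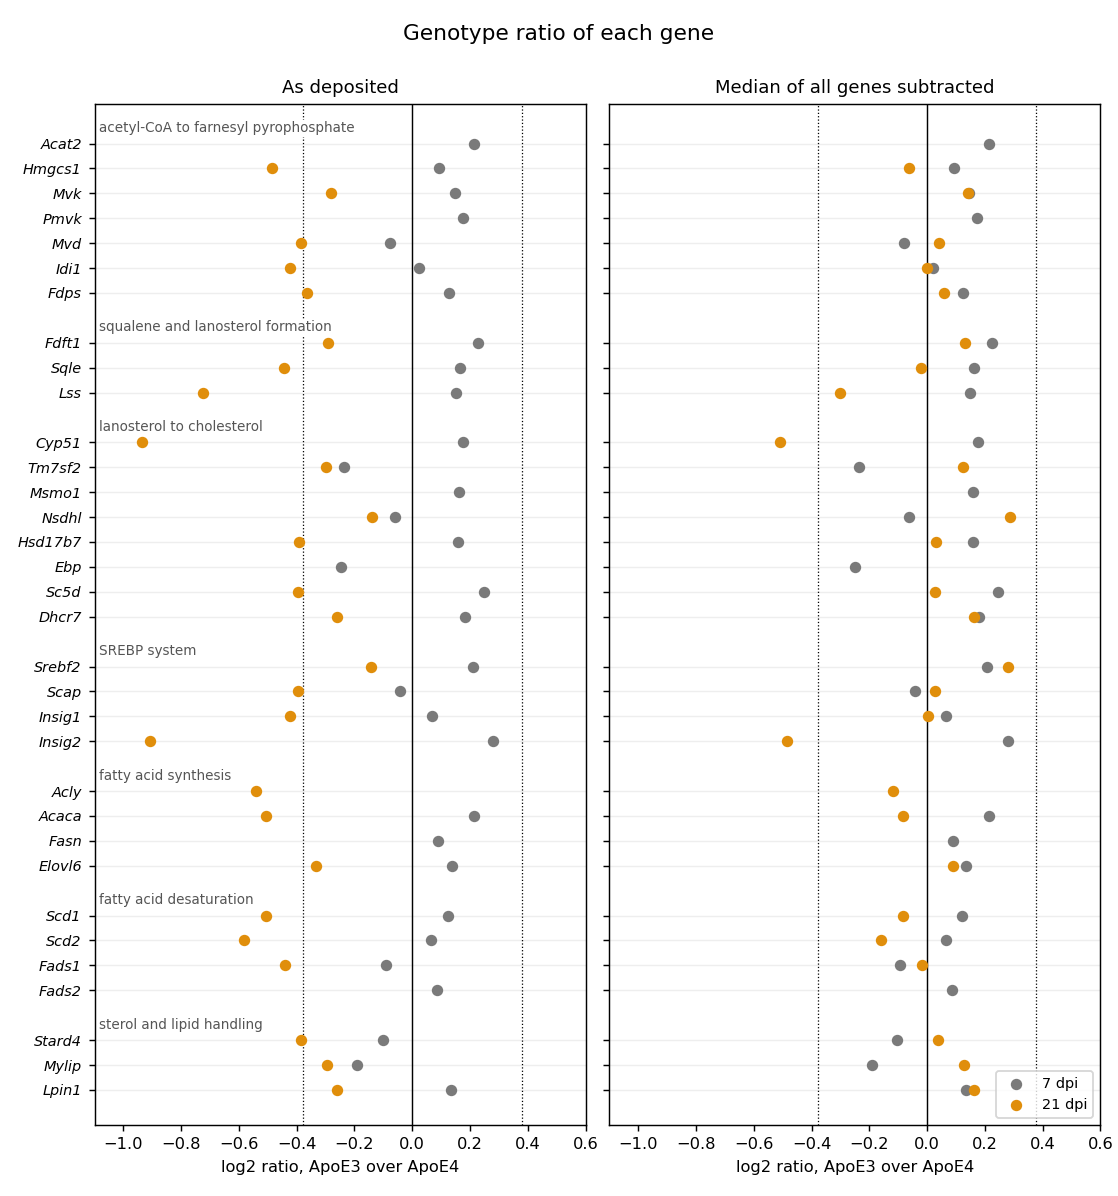
Log2 ratio of ApoE3 over ApoE4 for each gene at 7 dpi (grey) and 21 dpi (orange), as deposited on the left and with the median of all genes subtracted on the right. The dotted lines mark the fold of 1.3, and after the subtraction only Cyp51 and Insig2, both at 21 dpi, lie outside them.

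Cyp51 was the gene with the lowest ratio at 21 dpi. It had 26.2 FPKM in ApoE3 mice and 23.1 in ApoE4 mice at 7 dpi, and 19.3 in ApoE3 and 37.9 in ApoE4 at 21 dpi. In FPKM, the ApoE4 group at 21 dpi was thus the highest of the 4 and the ApoE3 group at 21 dpi the lowest. The first of these places depends on the shift of the whole table, since relative to all genes the change from 7 to 21 dpi in ApoE4 mice was 0.16 and the ratio at 7 dpi was 0.17 toward ApoE3. Its log2 ratio at 21 dpi was -0.93, or -0.51 when centred. Lss, the step before it, had 36.5 FPKM in ApoE3 mice and 32.8 in ApoE4 mice at 7 dpi, and 22.8 in ApoE3 and 38.3 in ApoE4 at 21 dpi. The ApoE3 group at 21 dpi was again the lowest, with a centred log2 ratio of -0.30, which was within the fold. Sqle, the squalene epoxidase upstream of Lss, had 15.3 FPKM in ApoE3 mice and 21.2 in ApoE4 mice at 21 dpi and a centred ratio of -0.022, compared to 14.6 and 12.9 FPKM at 7 dpi.

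The sterol enzymes on either side of these steps lay nearer the median of all genes or above it at 21 dpi. Among the 5 genes listed from acetyl-CoA to farnesyl pyrophosphate, the centred ratios ran from -0.063 to 0.14. Hmgcs1 had 143 FPKM in ApoE3 mice and 201 in ApoE4 mice, and Mvk, the mevalonate kinase, had 67.1 and 81.8, compared to 41.0 and 36.9 at 7 dpi. Mvd, the decarboxylase that makes isopentenyl pyrophosphate, had 20.5 FPKM in ApoE3 mice and 21.6 in ApoE4 mice at 7 dpi, and 28.3 and 37.2 at 21 dpi. Idi1, the isopentenyl isomerase, was the least abundant of them, with 12.01 FPKM in ApoE3 mice and 11.8 in ApoE4 mice at 7 dpi, and 14.0 and 19.2 at 21 dpi. Downstream of Cyp51, Tm7sf2, Nsdhl, Hsd17b7, Sc5d and Dhcr7 had centred ratios above 0. Nsdhl had the highest of all 27 genes, at 0.29, with 9.76 FPKM in ApoE3 mice and 10.8 in ApoE4 mice. Dhcr7, the reductase that completes cholesterol, had 155 FPKM in ApoE3 mice and 136 in ApoE4 mice at 7 dpi, and 146 and 175 at 21 dpi, with a centred ratio of 0.16. Sc5d had 48.7 and 64.4 FPKM at 21 dpi and a centred ratio of 0.028. Upstream, Fdft1, the squalene synthase, had 98.3 FPKM in ApoE3 mice and 83.8 in ApoE4 mice at 7 dpi, and 151 and 185 at 21 dpi, with a centred ratio of 0.13.

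Among the control genes, the pair of Insig genes parted at 21 dpi. Insig2 had 205 FPKM in ApoE3 mice and 169 in ApoE4 mice at 7 dpi, and 129 in ApoE3 and 243 in ApoE4 at 21 dpi. In FPKM, the ApoE4 group at 21 dpi was the highest of the 4 and the ApoE3 group at 21 dpi the lowest. Relative to all genes, the change from 7 to 21 dpi in ApoE4 mice was -0.0067 and the ratio at 7 dpi was 0.28 toward ApoE3, so the place of the highest group depends on the shift of the whole table. Its log2 ratio at 21 dpi was -0.91, or -0.49 when centred. Insig1 had 34.4 FPKM in ApoE3 mice and 46.4 in ApoE4 mice at 21 dpi, with a centred ratio of 0.0013, at the median of all genes. Srebf2 had 75.1 FPKM in ApoE3 mice and 83.1 in ApoE4 mice, and its centred ratio of 0.28 was the highest among the control genes. Scap had 86.4 and 114 FPKM and a centred ratio of 0.029. Whether these genes differed from each other beyond the spread between mice was not tested.

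Promoter sequence is shown for 4 genes, because Hmgcs1 is a standard SREBP target, Cyp51 and Insig2 were past the fold after centring, and Insig1 is the paralog of Insig2 that was not. RefSeq promoters of GRCm38.p6 matched 27 of the 34 genes, in 35 windows of the 250 bases before a start, and Fdps, Fdft1, Sqle, Stard4, Scd1, Scd2 and Fads1 had no entry. The windows were searched on both strands for TCACNCCAC, a form of the sterol regulatory element, for CCAAT, the box bound by NF-Y, and for GGGCGG, the box bound by Sp1, none of which contains another, although their end letters can be shared. The capitals mark TCACNCCAC and CCAAT on either strand (GTGGNGTGA and ATTGG), and GGGCGG is left in lower case. The windows are chr13:119690101-119690350 on the plus strand for Hmgcs1, chr5:4104698-4104947 on the minus strand for Cyp51, chr5:28071162-28071411 on the plus strand for Insig1 and chr1:121332590-121332839 on the minus strand for Insig2, at the farthest upstream of its 3 annotated starts. Each is printed in the direction of transcription and ends at the base before the start.
Hmgcs1: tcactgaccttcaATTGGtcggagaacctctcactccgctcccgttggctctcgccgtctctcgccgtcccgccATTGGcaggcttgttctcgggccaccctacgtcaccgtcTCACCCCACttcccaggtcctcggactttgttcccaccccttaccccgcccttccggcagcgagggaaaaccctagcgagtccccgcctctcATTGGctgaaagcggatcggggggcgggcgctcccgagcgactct
Cyp51: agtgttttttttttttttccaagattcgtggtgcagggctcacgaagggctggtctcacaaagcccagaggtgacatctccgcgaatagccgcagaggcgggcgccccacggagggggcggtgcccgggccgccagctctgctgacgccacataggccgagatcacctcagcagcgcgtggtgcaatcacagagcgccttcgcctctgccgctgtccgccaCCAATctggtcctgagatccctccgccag
Insig1: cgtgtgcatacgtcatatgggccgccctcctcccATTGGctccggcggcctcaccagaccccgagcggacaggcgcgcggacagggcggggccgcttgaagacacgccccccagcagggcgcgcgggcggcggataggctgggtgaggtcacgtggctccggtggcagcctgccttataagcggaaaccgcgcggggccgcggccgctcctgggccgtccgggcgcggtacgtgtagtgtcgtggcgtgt
Insig2: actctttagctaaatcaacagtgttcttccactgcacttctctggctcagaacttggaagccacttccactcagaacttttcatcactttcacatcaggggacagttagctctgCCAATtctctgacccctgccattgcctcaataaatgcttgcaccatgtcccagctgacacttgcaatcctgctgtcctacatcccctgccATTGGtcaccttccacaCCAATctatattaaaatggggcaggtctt
The Hmgcs1 window held TCACCCCAC beginning 137 bases before the start and CCAAT at 3 places. It was the only 1 of the 35 windows with a match to TCACNCCAC, which was present in 1.05% of all 32851 windows. Cyp51 had CCAAT once, beginning 29 bases before the start, Insig1 once at 216 bases, and Insig2 at 3 places, of which the nearest also began at 29 bases. CCAAT was found in windows of 20 of the 27 genes, or 60% of their windows compared to 33.8% of all, and GGGCGG in those of 22 genes, or 71.4% of their windows compared to 32.7% of all. The windows of these genes were richer in G and C, with a median of 62.8% compared to 52.4% for all windows. A match describes the letters of a window and does not show binding, and no binding was measured.

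Fatty acid synthesis and desaturation stood close to the median of all genes at 21 dpi, slightly on the side of ApoE4. Acly, which cleaves citrate to give cytosolic acetyl-CoA and was listed only at this time point, had 207 FPKM in ApoE3 mice and 302 in ApoE4 mice and a centred ratio of -0.12. Acaca had 123 FPKM in ApoE3 mice and 176 in ApoE4 mice, compared to 132 and 114 at 7 dpi, with a centred ratio at 21 dpi of -0.082. Elovl6, which lengthens palmitic acid, was the lowest of these genes, with 12.4 FPKM in ApoE3 mice and 11.2 in ApoE4 mice at 7 dpi, and 12.6 and 16.1 at 21 dpi. Its centred ratio of 0.091 at 21 dpi was the only positive value among the fatty acid genes. The 3 desaturases listed at 21 dpi were below the median of all genes. Scd2 had a centred ratio of -0.16, and Scd1, its paralog, had 128 FPKM in ApoE3 mice and 118 in ApoE4 mice at 7 dpi, and 119.6 and 170.4 at 21 dpi, with a centred ratio of -0.083. Fads1, a desaturase of polyunsaturated fatty acids, had 108 FPKM in ApoE3 mice and 115 in ApoE4 mice at 7 dpi, and 152 and 207 at 21 dpi, with a centred ratio of -0.016. Fads2, which acts in the same route, had 83.9 and 78.95 FPKM at 7 dpi.

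Of the handling genes, Lpin1 lay above the median of all genes at both time points, and Stard4 and Mylip only at 21 dpi, a difference that was not tested. At 7 dpi Stard4, a sterol transfer protein of the cytosol, and Mylip were higher in ApoE4, and at 21 dpi all 3 genes lay above the median of all genes, at centred ratios from 0.039 to 0.16. Stard4 had 11.8 FPKM in ApoE3 mice and 12.7 in ApoE4 mice at 7 dpi, and 11.1 and 14.8 at 21 dpi. Mylip had 17.1 FPKM in ApoE3 mice and 19.6 in ApoE4 mice at 7 dpi. None of these ratios was past the fold after centring.

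From 7 to 21 dpi, relative to all genes, Mvk, Fdps, Fdft1 and Insig1 were past the fold toward higher levels in both genotypes, and Mylip and Hsd17b7 toward lower levels in both. Cyp51, Lss and Insig2 were past it toward lower levels in ApoE3 and within it in ApoE4. The shares of all genes past the fold in both genotypes, or in a single genotype, were not counted. These groupings therefore do not set the genes apart from the table. Centred changes are log2 of FPKM plus 1 at 21 dpi over 7 dpi, minus the median over genes whose mean FPKM was 1 or more, which was 0.0888 in ApoE3 and 0.53 in ApoE4. Of the 26 genes listed at both time points, 6 in ApoE3 (23.1%) were past the fold toward 21 dpi, compared to 26.6% of all genes. Toward 7 dpi there were 5 (19.2%), compared to 27.7%. In ApoE4 the numbers were 4 (15.4%) toward 21 dpi, compared to 26.1%, and 2 (7.69%) toward 7 dpi, compared to 28.6%. In each case the share of the pathway was below that of all genes. The median change was -0.10 in ApoE3 and 0.013 in ApoE4, and the sign of the latter differed between settings. Without subtraction of the median, that of ApoE3 was -0.013, near 0, beside 0.54 in ApoE4.

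Among the genes past the fold toward 21 dpi in both genotypes, Fdps, the synthase of farnesyl pyrophosphate, had the largest changes. It had 63.4 FPKM in ApoE3 mice and 57.9 in ApoE4 mice at 7 dpi, and 118 and 152 at 21 dpi, with centred changes of 0.79 in ApoE3 and 0.85 in ApoE4. Fdft1 had centred changes of 0.52 in ApoE3 and 0.61 in ApoE4, Mvk of 0.61 and 0.60, and Insig1 of 0.45 and 0.50. Tm7sf2, a sterol reductase, and Fads1 passed the fold in ApoE3 alone, with centred changes of 0.63 and 0.41 there, and of 0.26 and 0.32 in ApoE4, a difference that was not tested. How many of all genes did so was not counted. When the median was taken over genes whose mean FPKM was 10 or more, Fads1 was within the fold in ApoE3 as well. Tm7sf2 had 8.08 FPKM in ApoE3 mice and 9.69 in ApoE4 mice at 7 dpi, and 13.9 and 17.4 at 21 dpi. In the other direction, Mylip had the largest change of the 26 genes, of -1.29 in ApoE3 and -1.62 in ApoE4. Hsd17b7, a sterol ketoreductase, had 32.7 FPKM in ApoE3 mice and 29.2 in ApoE4 mice at 7 dpi, and 21.3 and 28.4 at 21 dpi, with centred changes of -0.68 and -0.57. Without subtraction of the median, its change in ApoE4 was -0.041, within the fold.

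Lss, Cyp51 and Insig2 were past the fold toward 7 dpi in ApoE3 and within it in ApoE4. Their centred changes in ApoE3 were -0.75 for Lss, -0.51 for Cyp51 and -0.76 for Insig2. In ApoE4 they were -0.31 for Lss, 0.16 for Cyp51 and -0.0067 for Insig2. Without subtraction of the median, the changes in ApoE4 were 0.22 for Lss, 0.69 for Cyp51 and 0.52 for Insig2, the last 2 past the fold toward 21 dpi. By that measure Tm7sf2 and Fads1 were past it in ApoE4 too, at 0.78 and 0.85, as were 19 of the 26 genes, compared to 59% of all genes. The difference between genotypes in these changes was not tested, and the share of all genes past the fold in ApoE3 alone was not counted. The ApoE3 value at 21 dpi enters both this change and the genotype ratio at 21 dpi, so the low ratios of these genes at 21 dpi and their low levels against 7 dpi are not separate observations. By centred changes, the remaining 15 genes, Hmgcs1, Srebf2, Scap and Scd2 among them, were within the fold in both genotypes.

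**Figure D4:**
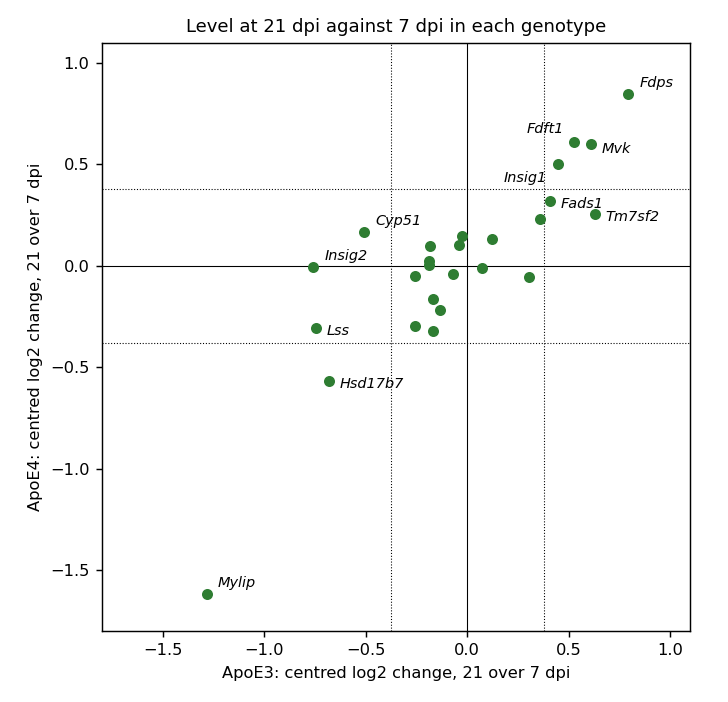
Centred log2 change from 7 to 21 dpi in ApoE3 (horizontal) and ApoE4 (vertical) for the 26 genes listed at both time points, with 1 point per gene and dotted lines at the fold of 1.3. Mvk, Fdps, Fdft1 and Insig1 lie at the upper right, Mylip and Hsd17b7 at the lower left, and Cyp51, Insig2 and Lss to the left of the dotted line for ApoE3 but inside those for ApoE4.

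Other genes of lipid synthesis, its control and the use of sterols were examined in the same way, and few of them were past the fold once the shift at 21 dpi was subtracted. At 7 dpi, 45 of 49 such genes were listed, of which 1 was past the fold toward ApoE3 and 0 toward ApoE4, compared to 3.78% and 4.76% of all genes, with a median log2 ratio of 0.045. That gene was Acacb, the mitochondrial relative of Acaca, with 12.3 FPKM in ApoE3 mice and 7.65 in ApoE4 mice. At 21 dpi, all 41 listed were lower in ApoE3, as were 93.8% of all genes, and 26 of them (63.4%) were past the fold, compared to 58.9% of all genes, and the median centred ratio was -0.071. After centring, 3 (7.32%) were past the fold toward ApoE4 and 0 toward ApoE3, compared to 8.06% and 7.47% of all genes, so these counts do not set the genes apart from the table. The 3 were Mlx, the partner of the carbohydrate response factors, with 53.1 FPKM in ApoE3 mice and 109 in ApoE4 mice, Hacd2, a dehydratase of fatty acid elongation, with 32.2 and 57.7, and Ch25h, a cholesterol hydroxylase of myeloid cells, with 5.70 and 10.8.

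By list, the genes that build sterols had centred medians close to those of the sterol enzymes above. The centred medians of the genes that use or store sterols were lower, a difference that was not tested. The 7 other sterol synthesis genes listed had centred medians of 0.12 at 7 dpi and 0.089 at 21 dpi. The most abundant gene was Ggps1, which makes geranylgeranyl pyrophosphate, with 387 FPKM in ApoE3 mice and 386 in ApoE4 mice at 7 dpi, and 282 and 443 at 21 dpi. The other control genes had centred medians of -0.023 and -0.052, and were led by Nr1h2, the liver X receptor beta, at 395 and 409.9 FPKM at 7 dpi, and by Mbtps1, the first protease that cleaves SREBPs, at 259 and 325 FPKM at 21 dpi. The other fatty acid genes had centred medians of 0.053 and -0.078, led by Mid1ip1, an activator of Acaca, at 214 and 205 FPKM at 7 dpi and by Acsl6, an acyl-CoA synthetase, at 409 and 669.8 FPKM at 21 dpi. All 5 genes of sterol use and storage were higher in ApoE4 at 7 dpi, as were 49.6% of all genes. Their centred median was -0.13, and 0 of them were past the fold. They were again at 21 dpi, as were 93.8% of all genes, and after centring 4 lay below the median of all genes and Cyp46a1, a cholesterol hydroxylase of neurons, above it at 0.11, with a median of -0.23. Soat1, which esterifies cholesterol for storage, had 181 FPKM in ApoE3 mice and 209 in ApoE4 mice at 7 dpi, and 38.9 and 65.8 at 21 dpi. Cyp27a1, a sterol hydroxylase, was the most abundant of these 5 at 21 dpi, with 74.2 and 110.4 FPKM.

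Markers of the cells in the segment differed between groups as well, and their part in the values of the synthesis genes was not tested. At 7 dpi, when most synthesis genes were slightly higher in ApoE3, all 9 of 10 neuron markers that were listed were also higher there, with a centred median of 0.26. They summed to 6152 FPKM in ApoE3 mice and 4878 in ApoE4 mice, and the most abundant was Snap25, with 3366 and 2545. Of 12 oligodendrocyte markers, 9 were listed, 6 of them higher in ApoE3, with a centred median of 0.16. They summed to 128091 FPKM in ApoE3 mice and 135108 in ApoE4 mice, nearly all of it Mbp, with 120571 and 127575. Of 8 astrocyte markers 7 were listed, with a centred median of 0.055 and sums of 17481 and 17060 FPKM, led by Gfap with 12395 and 12386. Macrophage markers went the other way, with 9 of 9 listed, 7 higher in ApoE4, a centred median of -0.30, sums of 7035 and 9250 FPKM, and Lyz2 the most abundant at 4522 and 6076. The 6 of 8 microglia markers listed had a centred median of -0.019 and sums of 953 and 1062 FPKM. No marker listed at 7 dpi was at 0.

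At 21 dpi, the median ratio of every marker list lay farther from 0 than the median of the synthesis genes. Those of muscle, liver and Schwann cell markers lay farthest. Of 10 skeletal muscle markers, 7 were listed and all were higher in ApoE4, with a centred median of -3.85 and sums of 33.04 FPKM in ApoE3 mice and 723 in ApoE4 mice. The most abundant was Tnnt3, with 22.5 and 515 FPKM, and Myh4 was at 0 in ApoE3. At 7 dpi, 6 of the 10 had been listed, with a centred median of 0.31, sums of 161 and 127 FPKM, and Pvalb, which neurons also express, the most abundant at 98.3 and 86.4. Of 10 liver markers, 8 were listed at 21 dpi and none at 7 dpi, with a centred median of -2.22 and sums of 10.7 and 131 FPKM, led by Apoa2 with 5.38 and 59.2. In ApoE3, Cyp3a11 was at 0, Alb at 0.093, Ttr at 0.17 and Ahsg at 0.18 FPKM. Such markers may have been listed only through their ApoE4 value, so their direction is not independent of being listed. The same applies to Myh4, Tnnc2 and Atp2a1 of muscle and Cfd of fat. In the other direction it applies to Cldn19 of Schwann cells, at 0.19 FPKM in ApoE4. Liver and adipose tissue make fatty acids and sterols, and in the same groups the centred ratios of the synthesis genes lay between -0.51 and 0.29. Whether such tissue added to the values of the synthesis genes was not tested. Of 10 Schwann cell markers, 9 were listed and 7 of these were higher in ApoE3, with a centred median of 1.71 and sums of 3818 and 1832 FPKM, and Pmp22 the most abundant at 1969.95 and 992. At 7 dpi the 7 Schwann cell markers listed had a centred median of 0.037, sums of 1186 and 1169.8 FPKM, and Pmp22 at 693 and 671.

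The fat and glial lists give the rest of the tissue. Of 10 adipocyte markers, 4 were listed at 7 dpi, with a centred median of -0.11, sums of 150.2 and 157 FPKM, and Lipe the most abundant at 91.2 and 86.3. At 21 dpi 3 were listed, with a centred median of -0.46, sums of 6.19 and 17.7 FPKM, Fabp4 the most abundant at 3.29 and 6.92, and Cfd at 0 in ApoE3. Adipoq and Plin1, which define fat cells, were listed at neither time point, which does not show that they were low. Ckm and Myh1 of muscle were not listed at either time point, although other muscle markers were high in ApoE4 at 21 dpi. Astrocyte markers had a centred median of -0.29 at 21 dpi, with 8 of 8 listed and sums of 14007 and 24308.5 FPKM, led by Gfap with 8201 and 15313. Oligodendrocyte markers had one of -0.12, with 10 of 12 listed and sums of 228642 and 322322 FPKM, led by Mbp with 201348 and 278678. Neuron markers had one of -0.080, with 8 of 10 listed and sums of 8346 and 12257 FPKM, led by Snap25 with 5336 and 7812. Microglia markers had one of -0.26, with 4 of 8 listed and sums of 222 and 389 FPKM, led by Siglech with 123 and 237. Macrophage markers had one of -0.34, with 5 of 9 listed, sums of 289 and 552 FPKM and Lyz2 at 212 and 426. Among the marker lists, macrophage markers had the lowest median centred change from 7 to 21 dpi, of -3.97 in ApoE3 and -4.36 in ApoE4. Neuron markers had a median of 0.61 in ApoE3 and 1.11 in ApoE4, Schwann cell markers of 1.42 and -0.079, and skeletal muscle markers of -1.03 and 3.00. Astrocyte markers had one of -0.68 in ApoE3 and -0.22 in ApoE4, microglia markers of -0.61 and -0.51, and oligodendrocyte markers of -0.018 and 0.37. The part of these cells in the changes of the synthesis genes was not tested.

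**Figure D5:**
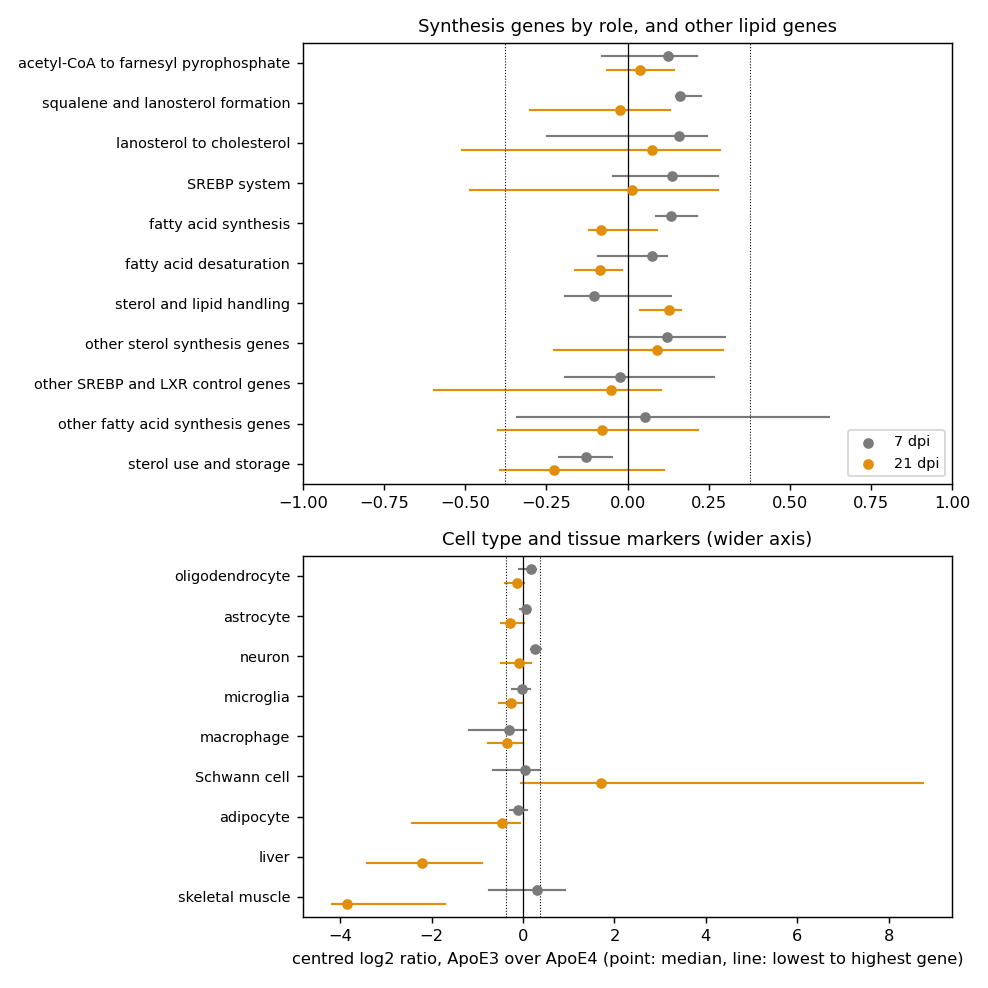
Centred log2 ratio of ApoE3 over ApoE4 by gene list at 7 dpi (grey) and 21 dpi (orange), with points at the median of the listed genes, lines from the lowest to the highest gene, and dotted lines at the fold of 1.3. The lists of synthesis genes and other lipid genes are in the upper panel and lie near 0, and the markers are in the lower panel on a wider axis, where muscle and liver markers lie far to the left and Schwann cell markers to the right at 21 dpi.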

How the data were processed

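RNA-seq was done on lesion segments of ApoE3 and ApoE4 TR mice at 7 and 21 dpi. The authors down-sampled single-end reads to the smallest library, used STAR 2.5.4b, bowtie2, SAMtools 0.1.7 and Cuffdiff 1.3.0, and deposited FPKM plus 1 per gene, with 1 value for each of the 4 groups. The paper reports a single replicate whose reads aligned at a markedly lower rate than those of the others. Its group is not named in the paper's text, so its part in the group values could not be examined. The genome build is not given in the sources used here, and the files hold no reads per gene, so no counting error is given. The authors' fold change served only to check which value is divided by which, and their p-values, q-values and table of differentially expressed genes were not used.

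From 14127 rows at 7 dpi and 11474 at 21 dpi, the row with the higher mean was kept for 2 repeated symbols at each time point. After 1 was subtracted, log2 ratios with a pseudocount of 1 were computed in Python 3.11.15 (numpy 2.4.6, pandas 2.3.3, matplotlib 3.10.9) and tested on simulated data. No further filter on low values was used, and the deposited rows all had the test status Ok. Named were members past the fold of 1.3, the highest and lowest of each role, the first enzyme of each role, the 5 with the largest change over time, the Srebf and Insig genes, and, of the other lipid lists, genes past the fold and the most abundant. Other genes were chosen as examples after their values were seen. Members and lists were chosen with earlier results of these data known. Spring1 was matched by an earlier symbol. The alternatives were pseudocounts of 0.1 and 0.01, a minimum mean FPKM of 1, folds of 1.5 and 1.2, centring (none, or over genes whose mean FPKM was 10 or more), and genotypes read by column number.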

Additional observations from a re-analysis of the deposited data

Results flagged for a closer look

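Cyp51 and Insig2 had opposite directions between genotypes at the 2 time points, as did the synthesis genes as a list before centring, but not after it. Opposite directions were not particular to these genes: 15 of the 26 synthesis genes listed at both time points had them after centring, as did 51.8% of all 10879 genes. Cyp51 and Insig2 were the 2 of the 15 that also passed the fold of 1.3 at 1 of the time points or both, 7.69% of the 26 compared to 10.1% of all genes. With 1 value per group, none of these differences between time points was tested.

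The centred log2 ratio of ApoE3 over ApoE4 for Cyp51 was 0.17 at 7 dpi and -0.51 at 21 dpi, a difference of -0.69. That of Insig2 was 0.28 at 7 dpi and -0.49 at 21 dpi, a difference of -0.76. At 7 dpi both were within the fold of 1.3. The median log2 ratio of the list, before centring, was 0.13 at 7 dpi over 32 genes and -0.39 at 21 dpi over 27 genes, a difference of -0.53. Over genes whose mean FPKM was 1 or more, the median went from 0.0018 to -0.42. After centring, the median of the list was 0.13 at 7 dpi and 0.029 at 21 dpi, in the same direction.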

How the results depend on the processing

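Without replicates, medians and single genes were taken as moved when they shifted by at least 0.1 on the log2 scale, and counts when they differed by more than 1.5 times. Of 102 alternative values, 85 kept their place, 12 moved and 5 reversed. Neither pseudocount, nor the minimum mean FPKM of 1, nor centring over genes whose mean FPKM was 10 or more moved a count or median in this sense. The median change over time in ApoE4, 0.013, lay so close to 0 that its sign differed within this tolerance, at -0.016 and -0.019 with pseudocounts of 0.1 and 0.01 and -0.028 with the last of these settings, and no direction is read from it. With that setting 5 genes in ApoE3 were past the fold toward 21 dpi, as Fads1 was within it at 0.3776.

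Reading the genotypes by column number gave medians of -0.13 at 7 dpi and 0.39 at 21 dpi, centred ratios at 21 dpi of 0.51 for Cyp51 and 0.49 for Insig2, and, past the fold at 21 dpi, 17 genes higher in ApoE3 and 0 in ApoE4, or 2 and 0 after centring. This reversal is built into that reading. Centring turned the median at 21 dpi from -0.39 to 0.029, by the shift of all genes. With a fold of 1.5, 3 genes were higher in ApoE4 at 21 dpi (23% of all genes) and 0 after centring (3.67%). With a fold of 1.2, 1 gene was higher in ApoE3 at 7 dpi, before and after centring (9.19% and 9.06% of all genes), and 2 were at 21 dpi after centring (12.9%). Without centring, the median change over time in ApoE3 was -0.013 (main value -0.10), with 8 genes past the fold toward 21 dpi (31.3% of all genes). In ApoE4 it was 0.54, with 19 genes past the fold toward 21 dpi (59% of all genes) and 1 toward 7 dpi (10.9%). The files give no reads per gene, so the precision of low values such as those of Nsdhl and Mylip was not computed.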
